A study of Rattus norvegicus with 9 samples.

Results

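Type I interferon response genes are the genes that cells switch on when interferon alpha or beta reaches them, and 39 rat genes of this kind were taken by name. Each was looked up in the annotation of the array, and 35 of the 39 had a probe with their symbol alone, always 1 probe per gene, among 28826 probes and 14497 named genes in all. Ifnar2, Samhd1, Parp14 and Xaf1 were not analysed here. The values come from lung tissue of 7 Wistar rats, a laboratory strain. The 3 rats with metabolic syndrome (MetS) were given nothing to drink but 30% sucrose solution for 24 weeks after weaning, and the 4 control rats drank water over the same time. Both groups ate the same chow freely, and the protocol names fasting for 7 hours before decapitation. The MetS rats were male by their labels. Those of the controls state no sex, and its part in the results was not tested. Each lung was read on a whole-transcript Affymetrix rat gene array, and MetS 1 and control 1 had 2 arrays each, which were averaged, so that n counts animals and their number limits the precision.

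Interferon alpha and beta bind a receptor of the subunits Ifnar1 and Ifnar2, whose kinases activate transcription factors such as Stat2. Stat2 and Irf9 are part of a complex that enters the nucleus and binds the interferon-stimulated response element in the promoters of many genes. The products sense foreign nucleic acid, degrade it, block its translation or keep virus particles from leaving the cell, and some, such as Usp18, dampen the signal again. In lung, epithelial cells, macrophages and plasmacytoid dendritic cells are known sources of and responders to these interferons.

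The core of that element, GAAA followed by 2 bases of any kind and GAAA again, which reads TTTC, 2 bases and TTTC on the opposite strand, was searched in both directions in promoters of 300 bases, running from 250 bases before to 50 after the RefSeq start site (assembly GRCr8). Of the 35 measured genes 26 had a promoter in the table, and 16 of the 26 (61.5%) held the letters at least once, against 3.92% of all 33469 promoters. The genes were taken because interferon is known to induce them, so the share describes the promoters and is no result of these rats. Only genes that held a match are shown, so Mx1, which also varied widely from rat to rat, is left out. The stretches below belong to the 3 genes whose MetS and control values did not overlap (Ifi44l, Rsad2, Oasl2). The others are of 4 genes with a match that varied widely from rat to rat (Irf7, Ifit3, Oas1a, Oas1b). All lie before the start site and read in the direction of the gene, with matches in capitals.
Ifi44l, chr2:243328607-243328693, plus strand: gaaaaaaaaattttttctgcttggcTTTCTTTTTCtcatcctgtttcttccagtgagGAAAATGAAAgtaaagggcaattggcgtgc
Rsad2, chr6:48788238-48788292, minus strand: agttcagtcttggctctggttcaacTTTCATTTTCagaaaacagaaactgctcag
Oasl2, chr12:47383307-47383361, minus strand: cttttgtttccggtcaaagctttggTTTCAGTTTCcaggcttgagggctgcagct
Irf7, chr1:205800063-205800117, minus strand: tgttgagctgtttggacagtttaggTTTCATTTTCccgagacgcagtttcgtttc
Ifit3, chr1:241527257-241527311, plus strand: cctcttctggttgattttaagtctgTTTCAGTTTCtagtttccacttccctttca
Oas1a, chr12:41330400-41330460, plus strand: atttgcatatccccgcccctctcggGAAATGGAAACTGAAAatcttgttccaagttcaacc
Oas1b, chr12:41395876-41395936, minus strand: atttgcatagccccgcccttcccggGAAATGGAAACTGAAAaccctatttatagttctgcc

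Oas1a and Oas1b are nearby copies in 1 gene family, and 50 of the 61 bases printed for each, lined up at the first match, were the same letter. Their capitals run together because a second match begins inside the first. The matches lay 41 and 35 bases before the start site in Oas1a and 59 and 53 in Oas1b. In Rsad2 and Oasl2 the match lay farther away, at 147 and 151 bases, and in Irf7 and Ifit3 at 69 and 44. Mx1, Stat2, Irf1, Irf9, Ifnar1, Trim25, Parp9, Herc6, Cmpk2 and Oasl had no match in this window.

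The question was whether the interferon response of the lung differed between MetS and control rats. It did not differ past the test for any gene: 0 of the 35 passed an adjusted p under 0.05 (limma, Benjamini-Hochberg over all probes, where 0.0% of the 28826 probes passed), and the smallest adjusted p of a member was 0.324. Most members stood slightly higher in MetS, 31 higher and 4 lower, with a median difference of 0.17 on the log2 scale. Most other genes as bright as these were also higher. Of the 7845 genes with a mean level between the dimmest member, 7.75, and the brightest, 11.21, 82.8% were higher in MetS, with a median of 0.09, whereas over all probes 53.3% were higher, with a median of 0.01. Without control 3 the median of the members was 0.06, the lowest value with any 1 animal left out, and without MetS 3 it was 0.26, the highest. It was 0.105 without MetS 1. After another quantile normalization 28 of the 35 were higher, with a median of 0.11. With the array spread (the SD of all values of an animal) in the fit 27 were higher. The array spread was wider in MetS 1 and MetS 2 than in any control, so that fit cannot fully part it from the group.

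At an unadjusted p under 0.05 limma listed 5 members higher and 0 lower, where 3.82% of all probes were higher and 9.91% lower. Among the equally bright genes 5.76% were higher at that threshold. The 5 were Ifi44l, Oasl2, Rsad2, Ifit2 and Ifit1. The count was 2 without MetS 1, 1 without MetS 2, 2 without control 3 and 1 without control 4. It was 1 after another quantile normalization and 0 with the array spread in the fit. The groups did not overlap for 3 members, all higher in MetS, while 4.88% of all probes were higher without overlap and 6.84% lower. Among the equally bright genes 8.2% were higher without overlap, a share near that of the members.

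**Figure D1:**
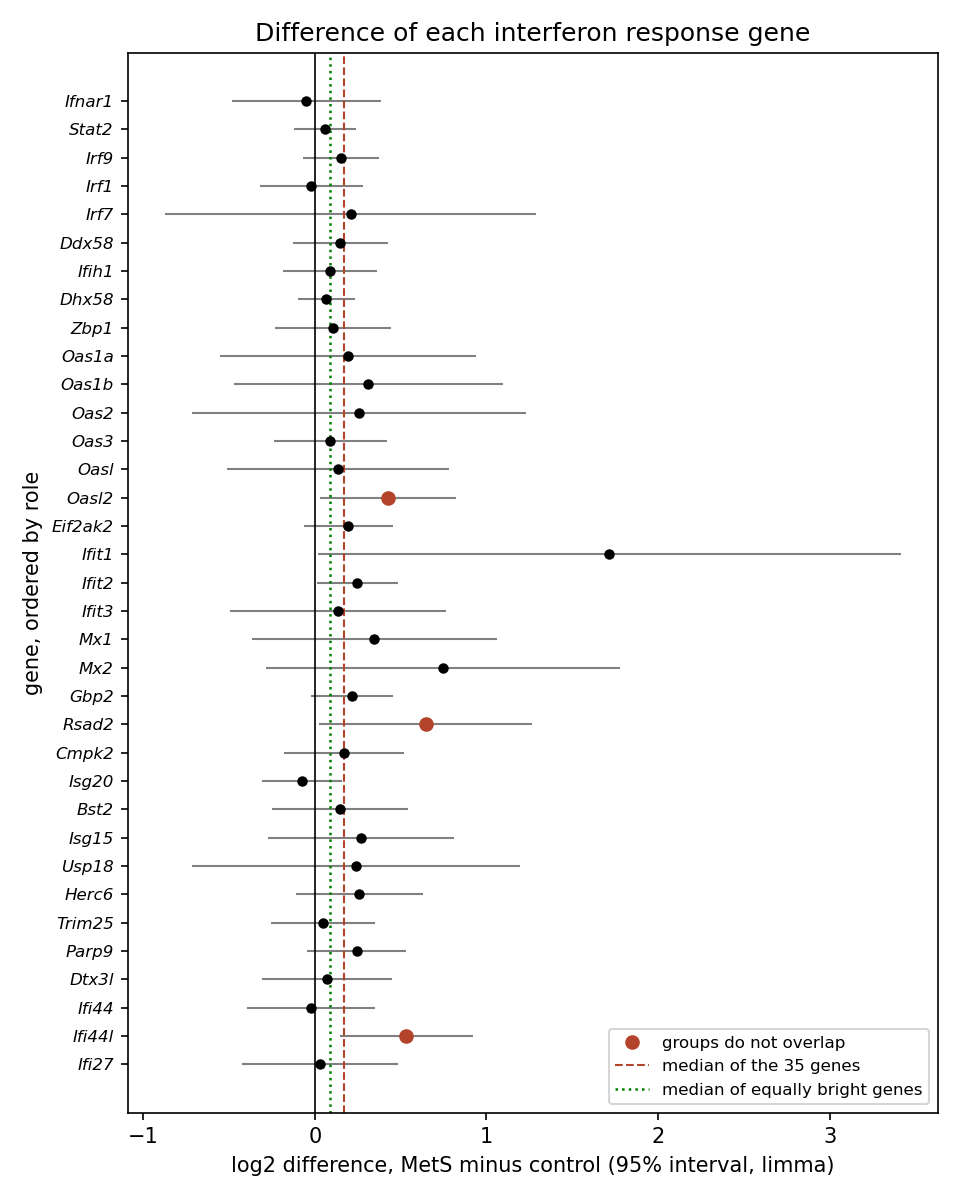
Log2 difference, MetS minus control, of each of the 35 genes (points) with its 95% interval from limma (lines), in the order of their roles. The dashed line is the median of the members, 0.17, and the dotted line that of 7845 equally bright genes, 0.09. Larger red points mark Oasl2, Rsad2 and Ifi44l, whose groups did not overlap.

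The difference between groups had a median of 0.17 over the members. Within each group the highest and lowest animal lay farther apart than that in the median of the members. That median against the control mean was 0.30 in MetS 1 and 0.27 in MetS 2 but -0.0049 in MetS 3, and it was 0.17 in control 1, 0.18 in control 2, -0.26 in control 3 and -0.13 in control 4. In MetS 1, 2 and 3 there were 31, 33 and 17 members above the control mean, and in controls 1 to 4 there were 32, 31, 1 and 8. MetS 1 and MetS 2 thus lay above every control, while MetS 3 lay near the control mean and within the span of the controls. Each control is part of that mean. Set against the other controls alone, controls 1 to 4 lay at 0.23, 0.24, -0.35 and -0.17. Over all probes the medians against the control mean lay between -0.01 and 0.01 in every animal, and over all named genes between -0.02 and 0.04. Medians of the equally bright genes were not taken per animal.

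Among the 4 controls, control 3 was the lowest for 14 members and control 4 for 16, while control 2 was the highest for 17 and control 1 for 15. Over all probes each control was the lowest for 21.3% to 28.2% and the highest for 20.5% to 29.6%. The arrays of the same animal lay close together: the median of the members was 0.30 on each array of MetS 1, and 0.19 and 0.15 on those of control 1. The array spread was 1.93, 1.90 and 1.88 in MetS 1 to 3 and 1.85, 1.77, 1.76 and 1.88 in controls 1 to 4. Controls 2 and 3 had the narrowest spread, with medians of the members at 0.18 and -0.26, and control 1 lay at 0.17. The part of the array spread in the medians of single animals was not tested.

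**Figure D2:**
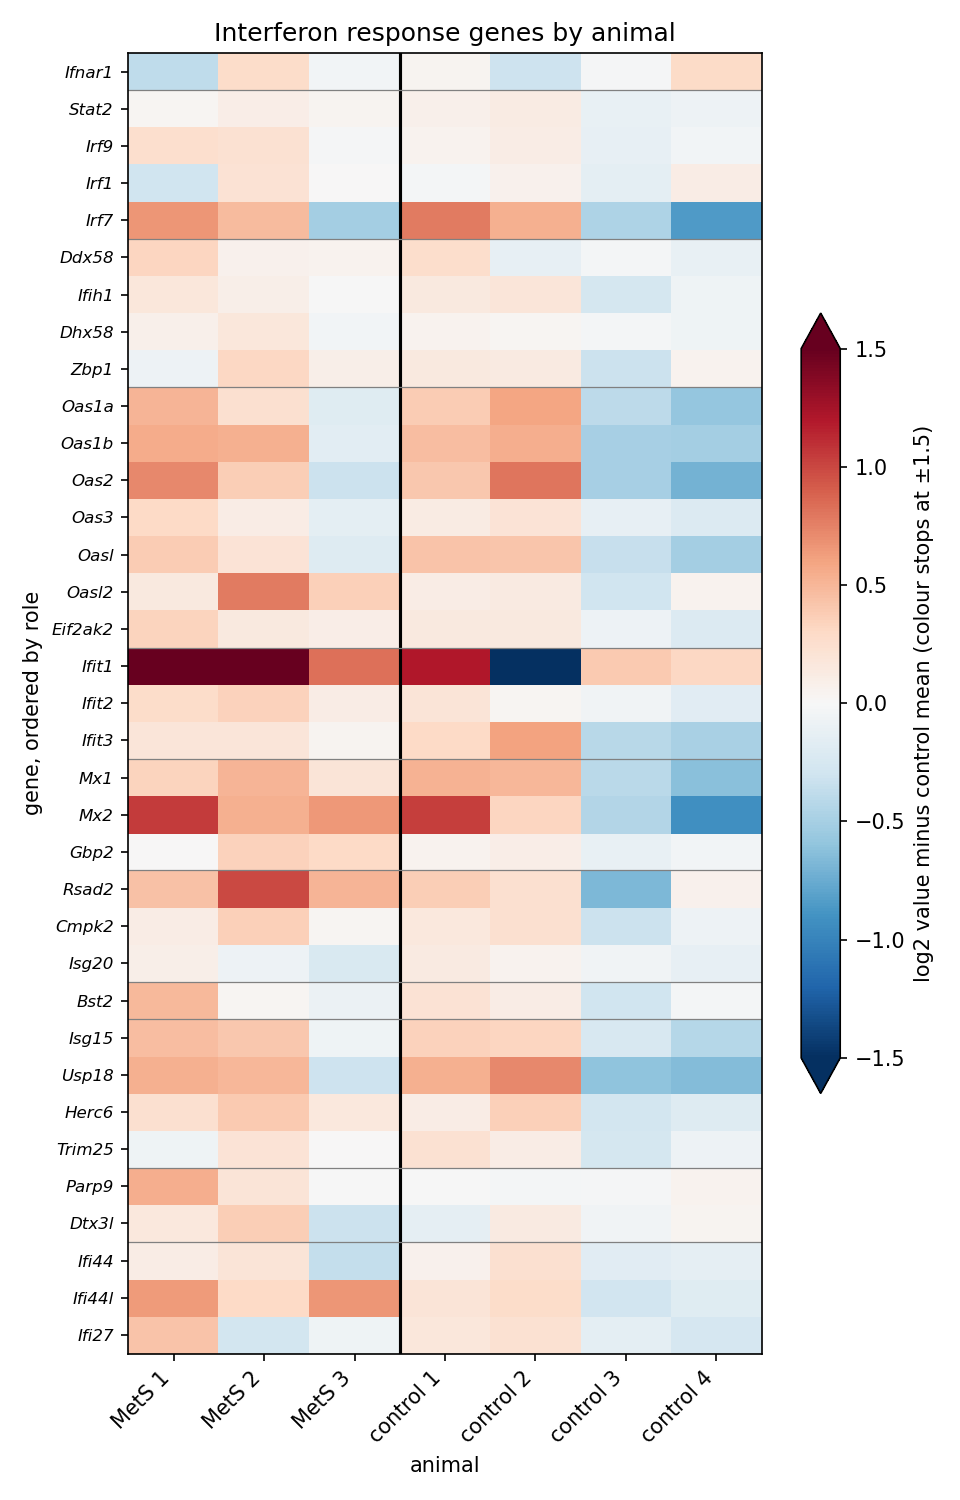
Each row is a gene, each column an animal (MetS left of the line, controls right), and the colour is the log2 value minus the mean of the controls, stopping at ±1.5. Irf7, Oas1a, Oas1b, Oas2, Mx1, Mx2, Isg15 and Usp18 are red in control 1 and control 2 and blue in control 3 and control 4, while Ifit1 is dark blue in control 2.

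The SD between animals within groups had a median of 0.24 over the members and 0.12 over the equally bright genes. It was above the median of those genes for 33 of the 35 members and in their top 10% for 20, or 57.1%. The arrays of the same animal differed by a median of 0.04 in MetS 1 and 0.04 in control 1, and by at most 0.18 for any member. Repeat arrays of equally bright genes differed by a median of 0.04 and 0.05. The median spread between rats was thus larger over the members than over genes of like brightness, while the repeat arrays differed about as much. The labels do not say at which step the repeat arrays part.

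**Figure D3:**
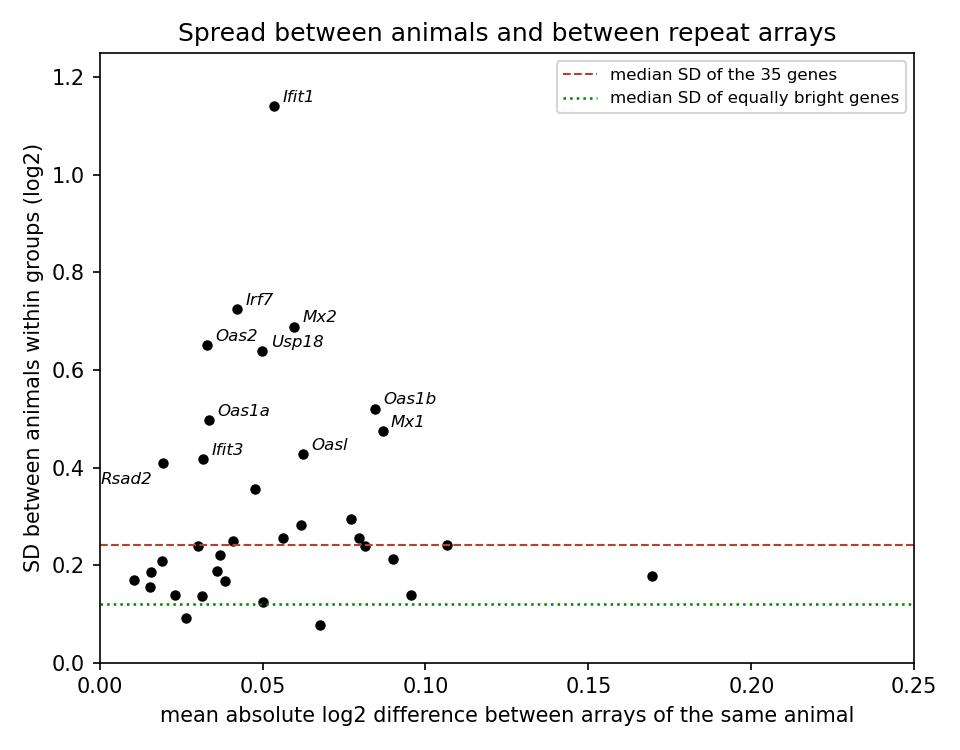
Each point is a gene, with the mean absolute log2 difference between the repeat arrays of MetS 1 and of control 1 on the horizontal axis and the SD between animals within groups (log2) on the vertical axis. The dashed line is the median of the members, 0.24, and the dotted line that of equally bright genes, 0.12. Ifit1 is highest at 1.14, followed by Irf7 at 0.72.

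The receptor and the factors that carry its signal had small differences. Ifnar1, a subunit of the receptor, read 10.85, 11.51 and 11.20 in MetS 1 to 3 and 11.28, 10.93, 11.21 and 11.52 in controls 1 to 4. The groups overlapped fully, with a difference of -0.05 and a 95% interval from -0.48 to 0.38 (limma adjusted p = 0.911). Stat2 and Irf9, partners in the complex that binds the response element, differed by 0.06 and 0.15 with overlapping groups. Irf9 read 9.77, 9.76 and 9.51 in MetS and 9.58, 9.64, 9.40 and 9.48 in controls. It averaged 9.68 ± 0.15 in MetS (SD, n = 3) and 9.53 ± 0.11 in controls (SD, n = 4), with a limma adjusted p of 0.475, and differed by 0.238 without MetS 3. Irf1, a factor that interferon gamma induces most strongly, differed by -0.02.

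Irf7, the factor that amplifies the response by driving further interferon alpha genes, had the widest range of these factors. It read 10.08, 9.89 and 8.91 in MetS 1 to 3 and 10.20, 9.95, 8.96 and 8.57 in controls 1 to 4. MetS 1, MetS 2, control 1 and control 2 stood about 1 unit above the other 3 animals, and the groups overlapped. The highest animal was 3.11-fold above the lowest. The difference between groups was 0.21, with a 95% interval from -0.87 to 1.29 (limma adjusted p = 0.841).

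Sensors of foreign nucleic acid had small differences. Ddx58, the gene of RIG-I, which detects viral RNA ends and has the current symbol Rig1, read 9.89, 9.63 and 9.62 in MetS and 9.83, 9.44, 9.53 and 9.46 in controls, a difference of 0.15 that was 0.059 without MetS 1. Ifih1, the gene of the long RNA sensor MDA5, differed by 0.09, and Dhx58, a related helicase that regulates both, by 0.07. Zbp1, a sensor of Z-form nucleic acid, read 7.77, 8.16 and 7.93 in MetS and 7.99, 7.98, 7.52 and 7.90 in controls, a difference of 0.11. All 4 had overlapping groups and limma adjusted p between 0.568 and 0.738.

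The enzymes that answer double-stranded RNA were all 7 higher in MetS, by 0.09 to 0.43. Most Oas proteins make a short oligoadenylate that activates RNase L, which cuts RNA, while Eif2ak2, the kinase PKR, halts translation. Oasl2 read 9.42, 10.05 and 9.64 in MetS 1 to 3 and 9.39, 9.41, 8.99 and 9.33 in controls 1 to 4. Every MetS animal lay above every control, although MetS 1 exceeded control 2 by little. The difference was 0.43 (95% interval 0.03 to 0.82, limma adjusted p = 0.348), and it was 0.25 without MetS 2.

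In the remaining Oas genes the groups overlapped. Oas1b read 8.59, 8.57 and 7.87 in MetS 1 to 3 and 8.50, 8.57, 7.53 and 7.52 in controls 1 to 4, a difference of 0.31 (95% interval -0.47 to 1.09, limma adjusted p = 0.668). It was 0.142 without control 4 and 0.547 without MetS 3. Oas2 read 8.36, 8.01 and 7.32 in MetS and 8.04, 8.45, 7.14 and 6.94 in controls. In both genes MetS 3, control 3 and control 4 were the 3 lowest animals. Oas1a, Oas1b, Oas2 and Oas3 lie close together on chromosome 12, and Oasl and Oasl2 are neighbours elsewhere on it. Oasl differed by 0.13 and its neighbour Oasl2 by 0.43. Whether probes of such similar genes bind each other's RNA was not tested.

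IFIT proteins bind viral RNA and block its translation, and Ifit1 had the widest values of any member. It read 10.30, 10.38 and 9.002 in MetS 1 to 3 and 9.38, 6.27, 8.57 and 8.49 in controls 1 to 4. Control 2 stood far below every other animal, and at 6.27 it was under 6.48, the 25th percentile of all probe means. MetS 3 lay below control 1, so the groups overlapped. The difference was 1.72 (95% interval 0.02 to 3.41, limma adjusted p = 0.362). Without control 2 it was 1.08 and with the array spread in the fit 0.59.

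Control 2 was not the lowest animal for the related genes Ifit2 and Ifit3, which lie close to Ifit1 on chromosome 1. Ifit3 read 9.30, 9.30 and 9.17 in MetS 1 to 3 and 9.42, 9.73, 8.71 and 8.64 in controls 1 to 4, so control 2 was the highest of all 7 animals. Ifit2 read 9.17, 9.24 and 9.01 in MetS and 9.09, 8.92, 8.85 and 8.73 in controls, where control 2 was in the middle. The Ifit2 difference was 0.25 (95% interval 0.01 to 0.48, limma adjusted p = 0.356), with MetS 3 below control 1. Control 2 had 1 array, so its Ifit1 value has no repeat. In the animals with 2 arrays, Ifit1 read 10.35 and 10.25 in MetS 1 and 9.38 and 9.38 in control 1.

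**Figure D4:**
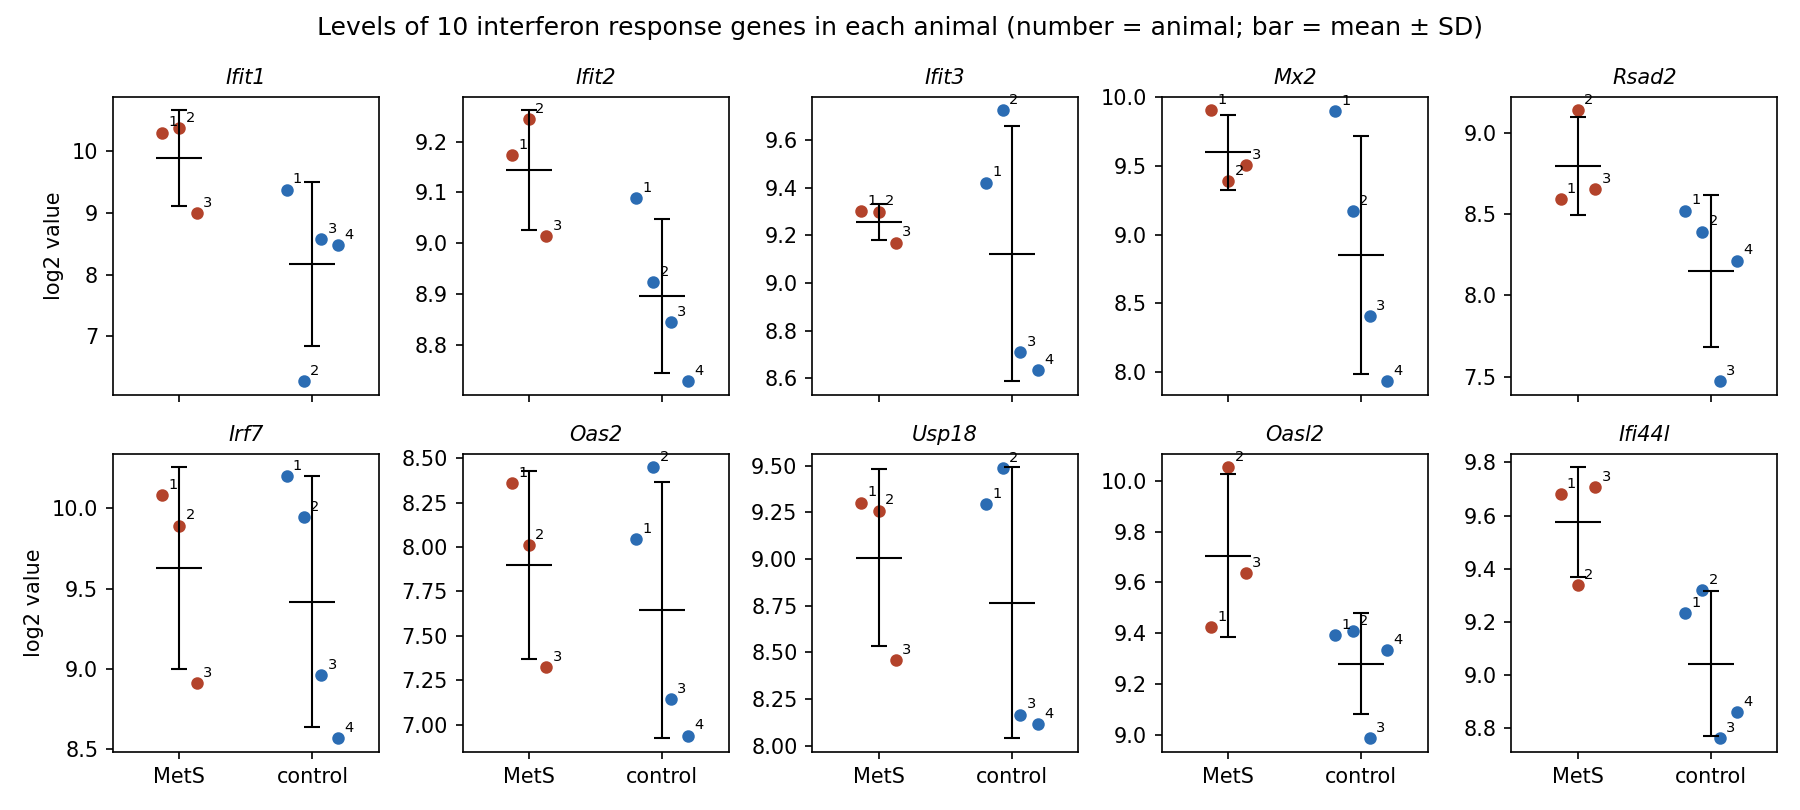
Log2 values of 10 genes in each animal, MetS left and control right, with the number of the animal beside each point and the mean ± SD as bars (n = 3 and n = 4). In Irf7, Oas2 and Usp18 animal 3 of MetS sits with controls 3 and 4, below the other 4 animals, and in Ifit1 control 2 lies at 6.27. Each panel has its own vertical axis.

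Mx and Gbp proteins are interferon-induced GTPases, of which Mx proteins trap viral nucleocapsids. Mx2 read 9.90, 9.39 and 9.50 in MetS 1 to 3 and 9.89, 9.17, 8.41 and 7.93 in controls 1 to 4. The controls alone spanned nearly 2 units, and control 1 lay beside the highest MetS animal. Its difference of 0.75 had a 95% interval from -0.28 to 1.78 (limma adjusted p = 0.463), and it was 0.44 without control 4. Mx1 read 9.64, 9.82 and 9.49 in MetS and 9.83, 9.80, 8.90 and 8.68 in controls, a difference of 0.35 with overlap (limma adjusted p = 0.601), and it was 0.139 without control 4 and 0.521 without control 1. In both genes all 3 MetS animals stood above control 3 and control 4. Gbp2, a guanylate-binding protein, differed by 0.22 (limma adjusted p = 0.389).

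Rsad2 codes for viperin, which makes a chain-terminating nucleotide from CTP, and Cmpk2 is a nucleotide kinase that supplies CTP. They are direct neighbours on chromosome 6. Rsad2 read 8.59, 9.14 and 8.65 in MetS 1 to 3 and 8.52, 8.39, 7.47 and 8.21 in controls 1 to 4. Every MetS animal was above every control, with control 3 far below the rest. The difference was 0.65, or 1.56-fold (95% interval 0.03 to 1.27, limma adjusted p = 0.356), and 0.42 without control 3. With the array spread in the fit it was 0.35. Cmpk2 read 9.19, 9.43 and 9.11 in MetS and 9.23, 9.31, 8.76 and 9.0004 in controls, a difference of 0.17 with overlap (limma adjusted p = 0.603), and 0.0619 without control 3. Isg20, an RNase, differed by -0.07.

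Bst2, or tetherin, holds budding virus at the cell surface, and it read 8.77, 8.32 and 8.20 in MetS and 8.50, 8.40, 7.99 and 8.26 in controls. The groups overlapped and its difference of 0.14 (limma adjusted p = 0.695) was -0.0927 with the array spread in the fit. Isg15 is a ubiquitin-like protein that is linked to other proteins, Herc6 is its main ligase in mouse, and Usp18 removes it and blocks the receptor. Isg15 read 8.60, 8.54 and 8.07 in MetS and 8.48, 8.46, 7.89 and 7.71 in controls. Usp18 read 9.30, 9.26 and 8.46 in MetS and 9.29, 9.49, 8.17 and 8.11 in controls. Both placed MetS 3 with controls 3 and 4, and their differences of 0.27 and 0.24 had limma adjusted p of 0.595 and 0.789. Isg15 differed by 0.126 without control 4 and by 0.435 without MetS 3.

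Herc6 read 10.13, 10.29 and 10.05 in MetS and 10.01, 10.26, 9.63 and 9.70 in controls, a difference of 0.26 with overlap (limma adjusted p = 0.475), and 0.168 without control 3. Trim25, a ligase that acts with RIG-I, differed by 0.05. Parp9 and Dtx3l, which form a complex that modifies histones, are neighbours on chromosome 11. Parp9 read 9.96, 9.61 and 9.41 in MetS and 9.41, 9.38, 9.40 and 9.47 in controls. MetS 1 and MetS 2 exceeded all controls and MetS 3 lay among them, and the controls spread little (SD 0.04). For Parp9 the 2 arrays of control 1 read 9.49 and 9.33, farther apart than the highest and lowest control. The 2 arrays of MetS 1 read 10.05 and 9.87. Dtx3l read 9.54, 9.76 and 9.06 in MetS and 9.25, 9.52, 9.34 and 9.43 in controls, so that MetS 3 was the lowest animal of all. The differences were 0.24 for Parp9 (limma adjusted p = 0.413) and 0.07 for Dtx3l (adjusted p = 0.848). Parp9 was at 0.0949 without MetS 1 and 0.0881 with the array spread in the fit.

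Ifi44l, an interferon-induced gene whose human product is known to dampen the response, had the smallest p of the members. It read 9.68, 9.34 and 9.71 in MetS 1 to 3 and 9.23, 9.32, 8.76 and 8.86 in controls 1 to 4. All MetS animals lay above all controls, with MetS 2 just above control 2. The difference was 0.53, or 1.45-fold (95% interval 0.14 to 0.92, limma adjusted p = 0.324), and it lay between 0.44 and 0.65 when any 1 animal was left out. Its neighbour on chromosome 2, Ifi44, differed by -0.02 and overlapped. Ifi27, whose human product is found in mitochondria, read 11.06, 10.35 and 10.56 in MetS and 10.80, 10.86, 10.48 and 10.38 in controls, a difference of 0.03 (limma adjusted p = 0.951) whose sign varied with the animal left out.

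Genes of the wider pathway outside the 35 members gave no adjusted call either. Their counts stand beside the 82.8% of genes as bright as the members that were higher in MetS, with a median of 0.09. Some genes of these lists lay outside that brightness range. Ifnb1, Ifnk, Ifng and Ifna4 were dimmer than every member, and over all probes 53.3% were higher in MetS, with a median of 0.01. At an unadjusted p under 0.05, 5.76% of the genes as bright as the members were higher. Of the interferon genes themselves, interferon gamma included, 5 were measured, 1 higher and 4 lower in MetS, with a median of -0.14 and none at that threshold. Ifna5, an interferon alpha gene, averaged 7.66 ± 0.05 in MetS and 7.93 ± 0.27 in controls, and Ifnk, the interferon of keratinocytes, 6.05 ± 0.03 in MetS and 6.20 ± 0.11 in controls. Every MetS animal was below every control for Ifnk, whose probe is 1 of the 2 of these 5 that lie below the 25th percentile of all probes, so its level is near the dim end of the array. Ifna5 differed by -0.27 with overlap. Of 11 receptor, kinase and inhibitor genes 10 were higher and 1 lower, again with none at that threshold and with a median of 0.08. Ifngr1, a receptor subunit for interferon gamma, differed by 0.11 and Stat3, a transcription factor of cytokine signalling, by 0.12.

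Of 14 genes that sense nucleic acid or induce interferon 12 were higher and 2 lower, with a median of 0.06 and 1 at an unadjusted p under 0.05, shares near those of equally bright genes. The 1 was Tbk1, a kinase that activates Irf3 and Irf7, at 9.60 ± 0.13 in MetS and 9.35 ± 0.14 in controls (limma adjusted p = 0.355). Traf3, an adaptor on the same route, averaged 7.37 ± 0.04 in MetS and 7.24 ± 0.13 in controls without overlap, a difference of 0.13. Of 34 further interferon-induced genes 26 were higher and 8 lower, with a median of 0.09. At that threshold 2 were higher, a share near that of equally bright genes. The 2 were Nmi, a partner of STAT proteins, with a difference of 0.41 (limma adjusted p = 0.353) and no overlap, and Trim21, an antibody receptor of the cytosol, with 0.18 (limma adjusted p = 0.359). Of 18 genes that interferon gamma induces 11 were higher and 7 lower, a smaller share than among equally bright genes, with a median of 0.03 and 1 higher at that threshold. The proteasome subunit gene Psmb8, the 1 past it, differed by 0.33 (limma adjusted p = 0.359) and Wars1, a tRNA synthetase gene, by 0.14 (limma adjusted p = 0.378).

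The 34 further interferon-induced genes also had control 3 and control 4 lowest, on a smaller scale. Their median against the control mean was 0.10, 0.14 and 0.01 in MetS 1 to 3 and 0.10, 0.07, -0.14 and -0.04 in controls 1 to 4. For the interferon gamma list it was -0.02, 0.19 and 0.07 in MetS and 0.04, 0.04, -0.07 and 0.03 in controls. MetS 3 was the lowest MetS animal in the first list and MetS 1 in the second.

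Lung identity was checked with epithelial markers, whose mean level over 7 genes lay between 12.82 and 12.84 in MetS and between 12.80 and 12.84 in controls. Fewer cells of a type and less RNA per cell cannot be told apart in whole tissue. Plasmacytoid dendritic cell markers, 6 measured, had mean levels of 8.23 to 8.27 in MetS and 8.07 to 8.30 in controls. One of them, Bst2, is also an interferon response gene. Among 10 monocyte and macrophage markers, mean levels were 9.64, 9.33 and 9.48 in MetS 1 to 3 and 9.57, 9.54, 9.43 and 9.48 in controls 1 to 4. Among 7 NK cell markers they were 9.003, 9.78 and 9.40 in MetS and 9.17, 9.76, 9.09 and 9.27 in controls.

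T cell markers ranged from 7.71 to 8.35 in MetS and from 7.78 to 8.14 in controls, and B cell markers from 7.55 to 7.96 in MetS and from 7.66 to 8.02 in controls. Neutrophil markers ranged from 8.53 to 8.91 in MetS and from 8.38 to 8.76 in controls, and dendritic cell markers from 6.89 to 7.06 in MetS and from 6.96 to 7.12 in controls. Red blood cell markers, 3 measured, were all higher in MetS, at 10.46 to 10.95 in MetS and 9.96 to 10.65 in controls, with a median difference of 0.50, and 2 of the 3, Hbb and Alas2, were at an unadjusted p under 0.05. Endothelial markers lay at 10.95 to 11.37 in MetS and 11.05 to 11.26 in controls, and fibroblast markers at 9.11 to 9.26 in MetS and 9.03 to 9.24 in controls. At that threshold the B cell marker Blk and the dendritic cell marker Xcr1 were lower in MetS and the fibroblast marker Tcf21 higher, by limma differences of -0.22, -0.32 and 0.27, and no other marker passed it. Over all probes 53.3% were higher in MetS, and at that threshold 3.82% were higher and 9.91% lower. None of the markers passed after adjustment. In every list the mean levels of the groups overlapped. The part of these cells in the values of the interferon response genes was not tested.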

How the data were processed

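Lung RNA of 7 rats was measured on 9 arrays. The deposited table holds log2 expression values per probe. Biotinylated copies came from total RNA with an RNA integrity limit, per the labels' protocols. The submitters' processing notes list R 2.11.0, RMA and limma without saying what each did. Those notes give no genome build, and GRCr8 is the build of the RefSeq genes and promoters used here. Array medians lay between 7.64 and 7.69 and array SDs between 1.76 and 1.94, so the columns are not fully equalised.

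Repeat arrays were averaged per animal. MetS minus control was fitted in R 4.3.3 by limma 3.58.1 (lmFit, then eBayes) over all 28826 probes, with Benjamini-Hochberg adjustment, a threshold of 0.05 and 7.28 degrees of freedom. The fit was tested on simulated data. Symbols came from the platform's annotation, updated through gene identifiers of RefSeq (GRCr8), with 1 symbol for 15209 probes, several for 306 and none for 13311. Promoter sequences are from RefSeq. Python 3.11.15, pandas 2.3.3 and matplotlib 3.10.9 made the summaries and figures.

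Members and lists were chosen with earlier results of these data known. All measured members are reported. Those given in full are, per role, those without overlap, those with an unadjusted p under 0.05 and the 2 with the largest difference, together with Ifit3, Oas2 and Usp18, which were chosen after their values were seen. Of each pathway list the 2 smallest p and any under 0.05 are named. No list was tested as a set. Labels do not say whether the animals were caged or processed together.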

Additional observations from a re-analysis of the deposited data

How the results depend on the processing

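In 19 alternatives 0 members passed the adjusted threshold, and the smallest adjusted p of the 20 members named by the rule was 0.163 in limma. The number of members at an unadjusted p under 0.05, reported as 5, was 0 with the array SD as a covariate, 3 with array weights, 1 after quantile normalizing again, 2 with the replicate block, 1 without controls 2 and 3, 0 at a threshold of 0.01, and 1 to 6 with single animals left out. The replicate block called 2017 probes, 138 higher and 1879 lower, and 0 members. The labels do not say whether equal numbers pair the animals. Over all probes, deviations from the group means correlated at 0.271, -0.118 and 0.339 in same-numbered animals. MetS 1 correlated best with control 1, and MetS 2 and MetS 3 with other numbers. So few pairs cannot decide whether the numbers pair the animals. Of 360 refitted differences 343 kept their sign. With the array SD in the fit Bst2 was -0.0927 and Zbp1 -0.0070. Ifi27 was -0.0745 with array weights, -0.0160 after quantile normalizing again and -0.0552 with the replicate block, under which Ifnar1 was 0.0462 and Irf7 -0.0751. With single animals left out Bst2 ranged from -0.0261 to 0.26, Dtx3l from -0.0807 to 0.265, Ifi27 from -0.17 to 0.18, Ifnar1 from -0.21 to 0.12, Irf7 from -0.0751 to 0.57 and Zbp1 from -0.0034 to 0.20. The causes of these changes were not tested. Each member had 1 probe, so averaging probes could change nothing. The number of animals limits the precision, and Ifit1 in control 2 lay below the 25th percentile of probe means.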
